A study of Homo sapiens with 3 samples.

Results

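The 35 genes described here carry cholesterol through the cell: enzymes of sterol synthesis, the SREBP system that switches them on, proteins of uptake and internal transfer, the esterifying enzymes, and the efflux transporters with their LXR receptors. They were chosen by symbol from a list of these roles, and all 35 symbols are among the 21572 rows of the expression table. Of these, 33 had a mean of at least 1 FPKM (fragments scaled to transcript length and library size) over the 3 libraries and were compared, out of 11069 such genes in all.

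RNA was sequenced from Hep-G2, an established human hepatoma line, in 3 cultures at passage 21. The sh#7 culture carried the short hairpin RNA TRCN0000246247 against FTO, which encodes an RNA demethylase, the sh#2 culture carried the hairpin TRCN0000255402 against the same gene, and the control carried the scramble hairpin SHC002. The design text ranks sh#7 as the stronger knockdown; whether each line was a clone or a pool was not given in the sources used here. Each group was 1 library, so differences have no replicate check, no test of the conditions was possible, and an effect of FTO cannot be told apart from an effect of a line.

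Cells build cholesterol from acetyl-CoA through mevalonate, squalene and lanosterol. When sterol in the endoplasmic reticulum is low, SCAP escorts the SREBP transcription factors to the Golgi, where they are cut and released to activate synthesis and uptake genes. INSIG proteins hold SCAP back when sterol is plentiful. Oxysterols made from surplus cholesterol activate the LXR receptors, which raise efflux transporters, and surplus cholesterol is also stored as esters. The liver is a main site of all these steps.

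FTO itself was at 2.55 FPKM (sh#7) and 5.29 FPKM (sh#2), against 9.02 FPKM (control). These levels were 28.2% (95% counting interval 26.6 to 30.02) and 58.6% (55.9 to 61.4) of the control, which follows the labelled order of the hairpins. The libraries held about 45.7 M, 47.0 M and 45.9 M estimated fragments in sh#7, sh#2 and the control. The summed level of the 13 hepatocyte markers was lower in the knockdown lines, at 8305 FPKM (sh#7) and 12107 FPKM (sh#2), against 18855 FPKM (control). The lowest marker level was 17.4 FPKM in sh#2 and 16.2 FPKM in the control, but 0.662 FPKM in sh#7. On the log2(FPKM + 1) scale, the largest drop of a marker in sh#7 was also the largest of all 11069 compared genes. Of the 13 markers, 7 in sh#7 and 3 in sh#2 were past 2-fold lower, against 2.48% and 0.723% of all compared genes. Fewer cells in a hepatocyte-like state and less of these RNAs per cell cannot be told apart, and the part of this shift in the results below was not tested. Of the markers of other cell types, 4 of 7 blood, 5 of 7 fibroblast and 5 of 5 endothelial markers were under 1 FPKM in every library. PTPRC, CD3E, COL1A2, COL3A1, DCN, LUM, KDR and TEK were listed at 0 in every library, although a value listed at 0 can be a failed estimate. The blood list summed to 322, 1354 and 3258 FPKM in sh#7, sh#2 and the control, nearly all of it LYZ, the fibroblast list to 52.7, 35.4 and 43.9 FPKM and the endothelial list to 0.0567, 0.196 and 0.0852 FPKM.

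The promoters of the members past 1.5-fold that had a sequence in the promoter table are shown here with that of SREBF2, because SREBPs are known to act at sterol genes together with the CCAAT-binding factor NF-Y. Each line gives the 250 bases before an annotated start of the gene in RefSeq on GRCh38.p14, written 5′ to 3′ on the gene's own strand. Where a gene had several starts, such as HMGCS1 and INSIG2, only the first window is printed. Capitals mark CCAAT or its reverse complement ATTGG, and in SREBF2 also the sterol regulatory element.
MVK, chr12:109573544-109573793, plus strand: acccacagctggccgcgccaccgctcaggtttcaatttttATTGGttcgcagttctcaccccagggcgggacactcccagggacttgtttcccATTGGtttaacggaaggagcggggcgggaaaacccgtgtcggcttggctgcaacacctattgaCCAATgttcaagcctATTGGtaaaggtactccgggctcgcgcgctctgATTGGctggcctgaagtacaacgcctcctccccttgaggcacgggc
HMGCS1, chr5:43313413-43313662, minus strand: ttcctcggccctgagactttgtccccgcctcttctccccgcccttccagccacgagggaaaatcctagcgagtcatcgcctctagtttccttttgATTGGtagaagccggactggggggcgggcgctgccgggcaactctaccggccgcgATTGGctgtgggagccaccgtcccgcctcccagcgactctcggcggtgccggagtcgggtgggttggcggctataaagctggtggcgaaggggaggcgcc
SREBF2, chr22:41832855-41833104, plus strand: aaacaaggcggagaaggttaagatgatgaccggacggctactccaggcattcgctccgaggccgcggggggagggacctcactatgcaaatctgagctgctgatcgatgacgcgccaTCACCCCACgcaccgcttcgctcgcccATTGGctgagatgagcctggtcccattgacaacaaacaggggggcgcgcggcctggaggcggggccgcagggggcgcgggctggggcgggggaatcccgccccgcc
INSIG2, chr2:118088221-118088470, plus strand: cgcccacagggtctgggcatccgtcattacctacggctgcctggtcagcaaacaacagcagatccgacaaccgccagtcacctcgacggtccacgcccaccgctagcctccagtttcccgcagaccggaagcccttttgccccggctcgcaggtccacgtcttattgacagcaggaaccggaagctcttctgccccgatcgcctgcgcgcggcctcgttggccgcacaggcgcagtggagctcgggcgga
SREBF1, chr17:17836987-17837236, minus strand: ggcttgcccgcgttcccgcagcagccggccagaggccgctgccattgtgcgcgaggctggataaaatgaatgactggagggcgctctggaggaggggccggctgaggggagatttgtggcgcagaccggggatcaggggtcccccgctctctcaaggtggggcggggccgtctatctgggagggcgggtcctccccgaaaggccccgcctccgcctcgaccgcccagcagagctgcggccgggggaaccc
NR1H2, chr19:50376207-50376456, plus strand: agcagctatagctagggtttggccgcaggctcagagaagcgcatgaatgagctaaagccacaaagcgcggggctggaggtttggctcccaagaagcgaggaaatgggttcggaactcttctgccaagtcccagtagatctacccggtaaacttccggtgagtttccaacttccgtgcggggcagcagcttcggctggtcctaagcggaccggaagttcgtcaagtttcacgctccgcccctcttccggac

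The search covered both strands of windows that run from 250 bases before to 50 bases after each start, and a gene with several windows counted once. A window was held for 29 of the 35 members, without ACAT2, FDFT1, SQLE, SCARB1, SOAT2 and ABCG1. CCAAT was found for 11 of the 13 synthesis enzymes with a window (84.6%) and for 19 of the 29 members (65.5%), against 43.8% of the 7937 compared genes with a window. MVK held 5 matches and HMGCS1 held 2, while the printed bases of INSIG2, SREBF1 and NR1H2 held none. The letters TCACNCCAC, a form of the sterol regulatory element, matched 1 member, SREBF2, which is 3.45% of the members and compares with 1.59% of the compared genes. The GC box GGGCGG, bound by SP1, matched 25 of the 29 members (86.2%) and 78.4% of the compared genes. Matches of different motifs may share bases. The LXR element known as DR4 was searched only as an exact repeat, and imperfect repeats were not searched. This exact form matched 0 of the 29 members and 1 of the 7937 compared genes (0.0126%). With a form this rare, a match among 29 members was very unlikely, so the 0 does not show that they lack LXR elements. All motif results here are letter matches and not measured binding.

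Within 1.5-fold of the control lay 28 of 33 cholesterol genes in sh#7 and 31 of 33 in sh#2. Of all 11069 compared genes, 9321 did so in sh#7 and 10473 in sh#2, so the members' shares were near the background. In sh#7, 0 of 33 members were past 2-fold higher and 2 were past 2-fold lower, INSIG2 and SOAT2, where 2.35% of all compared genes were past 2-fold higher and 2.48% lower. In sh#2, 0 members were past 2-fold in either direction, where 0.506% of compared genes were higher and 0.723% lower. Past 1.5-fold, sh#7 had 3 members higher (HMGCS1, SREBF1 and NR1H2) and 2 lower, against 9.61% and 6.18% of compared genes, and sh#2 had MVK higher and INSIG2 lower, against 2.67% and 2.72%. Each count of members rests on 1 to 3 genes. All differences and thresholds are on the log2(FPKM + 1) scale, which understates the change of low genes.

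The whole distribution was shifted a little upward: the median difference of all compared genes was 0.16 in sh#7 and 0.10 in sh#2 against the control. The members' median was 0.10 in sh#7 and 0.09 in sh#2, and 14 of 33 members lay above the median of all compared genes in sh#7, as did 15 of 33 in sh#2. Both lines share the control library, so their values are given side by side and not as independent evidence. The counting intervals cover counting error only, and they are approximate because the fragments behind them come from an estimated depth and from gene lengths of a newer annotation.

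**Figure D1:**
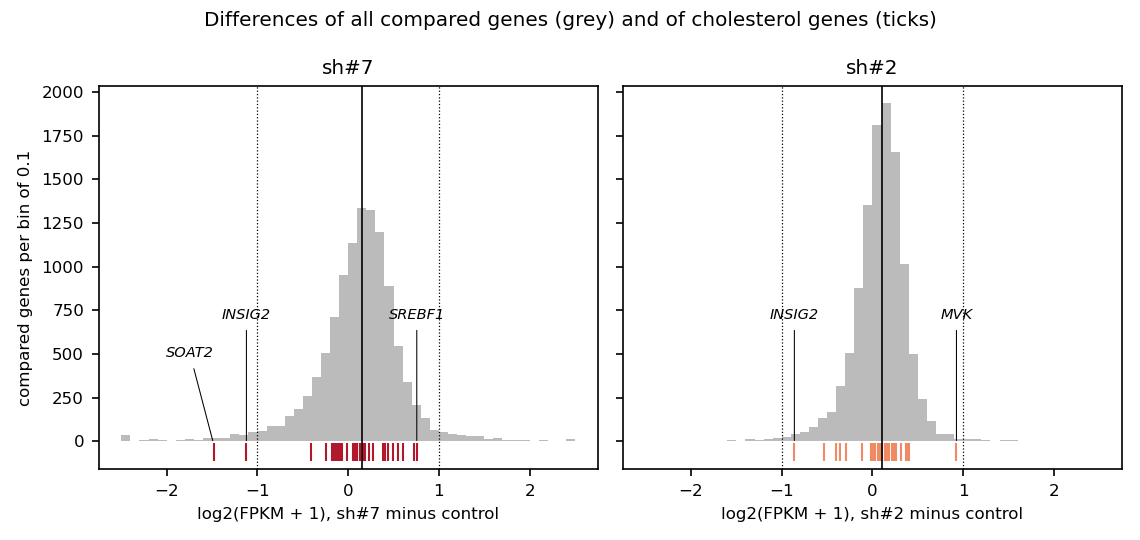
Histograms of the log2(FPKM + 1) difference from the control for the 11069 compared genes (grey, in bins of 0.1, values beyond the axis placed in the end bins) in sh#7 (left) and sh#2 (right), with the 33 compared cholesterol genes as ticks below; the solid line is the median of all genes and the dotted lines mark 2-fold. Most ticks lie under the bulk of the histogram, with SOAT2 (-1.48) and INSIG2 (-1.12) apart on the low side in sh#7, and INSIG2 (-0.86) and MVK (0.93) at the edges in sh#2.

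Among the 8 early enzymes of synthesis, HMGCS1 in sh#7 and MVK in sh#2 were past 1.5-fold above the control. HMGCS1, which makes HMG-CoA, was at 109 FPKM (sh#7) and 76.9 FPKM (sh#2), against 65.7 FPKM (control). Relative to the control, sh#7 stood at 166% (95% interval 162 to 170) and sh#2 at 117% (114 to 120.3), so sh#7 was the highest library. MVK, the mevalonate kinase, was at 22.3 FPKM (sh#7) and 32.9 FPKM (sh#2), against 16.8 FPKM (control). Here sh#2 was the highest, at 195% of the control (184 to 207), and sh#7 lay between, at 132% (124 to 141). Only 0.614% of compared genes had a larger difference than MVK in sh#2. MMAB, a cobalamin enzyme gene that starts 290 bases from MVK on the opposite strand in RefSeq and shares 4.72% of MVK's annotated exon bases, was at 10.3, 10.9 and 9.69 FPKM in sh#7, sh#2 and the control, a far smaller spread than that of MVK.

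The next kinase, PMVK, went the other way in sh#2, at 24.2 FPKM (sh#7) and 16.05 FPKM (sh#2), against 21.5 FPKM (control). Its level in sh#2 was 74.5% of the control (68.0 to 81.6). MVD, which decarboxylates mevalonate diphosphate, was at 101, 100.2 and 88.3 FPKM in sh#7, sh#2 and the control, so both lines were above the control by almost the same amount. Relative to the median of all compared genes, its differences were only 0.03 in sh#7 and 0.08 in sh#2. IDI1, the isoprenoid isomerase, was at 81.5, 92.4 and 74.4 FPKM in the same order.

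The most abundant enzymes lay close to the control, apart from ACAT2 in sh#2. FDPS, the farnesyl diphosphate synthase and the highest member in every library, was at 369.7 FPKM (sh#7) and 416 FPKM (sh#2), against 390.1 FPKM (control). FDFT1, the squalene synthase, was at 277, 306 and 305 FPKM in sh#7, sh#2 and the control. ACAT2, the thiolase that joins acetyl-CoA units, was at 212 FPKM (sh#7) and 287 FPKM (sh#2), against 222 FPKM (control), so only sh#2 stood apart. ACAT2 shares 26.5% of its annotated exon bases with SOD2, 33.9% with the noncoding SOD2-OT1 and 9.23% with TCP1, all on the opposite strand. Of these partners, SOD2-OT1 is not listed in the expression table. Whether counting used strand was not given in the sources used here, and SOD2 was at 181, 287 and 413 FPKM in sh#7, sh#2 and the control, so reads of these genes could be mixed. FDPS also has processed pseudogene copies, which makes its read assignment uncertain.

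The 8 enzymes from squalene to cholesterol were within 1.5-fold of the control in both lines, as were most of the 11069 compared (9321 in sh#7, 10473 in sh#2). SQLE, the squalene epoxidase, was at 118 FPKM (sh#7) and 134 FPKM (sh#2), against 112 FPKM (control). LSS, the lanosterol synthase, was at 65.9, 50.3 and 48.3 FPKM and reached 137% of the control in sh#7 (133 to 140.5), the largest difference of these 8 in that line. CYP51A1, the lanosterol demethylase, was at 49.2, 56.4 and 53.4 FPKM in sh#7, sh#2 and the control. For this gene, the annotated locus AC000120.2 on the same strand covers 79.4% of its exon bases, and pseudogene copies exist, so its assignment is uncertain. TM7SF2, a sterol reductase, was lowest in sh#7, at 40.5 FPKM, with 48.7 FPKM in sh#2 and 48.1 FPKM in the control.

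NSDHL and HSD17B7, which act in removing the methyl groups of the sterol ring, were highest in sh#2. NSDHL was at 40.0 FPKM (sh#7) and 48.7 FPKM (sh#2), against 37.3 FPKM (control). HSD17B7 was at 15.7, 18.6 and 13.8 FPKM, and its pseudogene HSD17B7P2 at 2.503, 3.48 and 3.21 FPKM in the same order; how reads were divided between these copies is uncertain. EBP, the sterol isomerase, was at 113, 138 and 129 FPKM, and DHCR7, which makes the last reduction to cholesterol, at 205, 231 and 218 FPKM in sh#7, sh#2 and the control. For both, sh#7 was lowest and sh#2 highest.

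Summed over the 16 synthesis enzymes, the level was 1843 FPKM (sh#7) and 2052 FPKM (sh#2), against 1842 FPKM (control). Their median difference from the control, relative to that of all compared genes, was -0.07 in sh#7 and 0.04 in sh#2. Set directly against sh#2, 13 of the 16 enzymes lay below the median of all compared genes in sh#7, and their relative median was -0.23; the exceptions were HMGCS1, PMVK and LSS. None of the 16 was past 1.5-fold between the lines, and 9996 of all 11069 compared genes also lay within it. MVK was past 1.5-fold on the lower side under median-of-ratios scaling, and PMVK on the higher side with a pseudocount of 0.1. Between the lines, 0 members were past 2-fold, against 1.45% of compared genes higher and 1.52% lower.

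**Figure D2:**
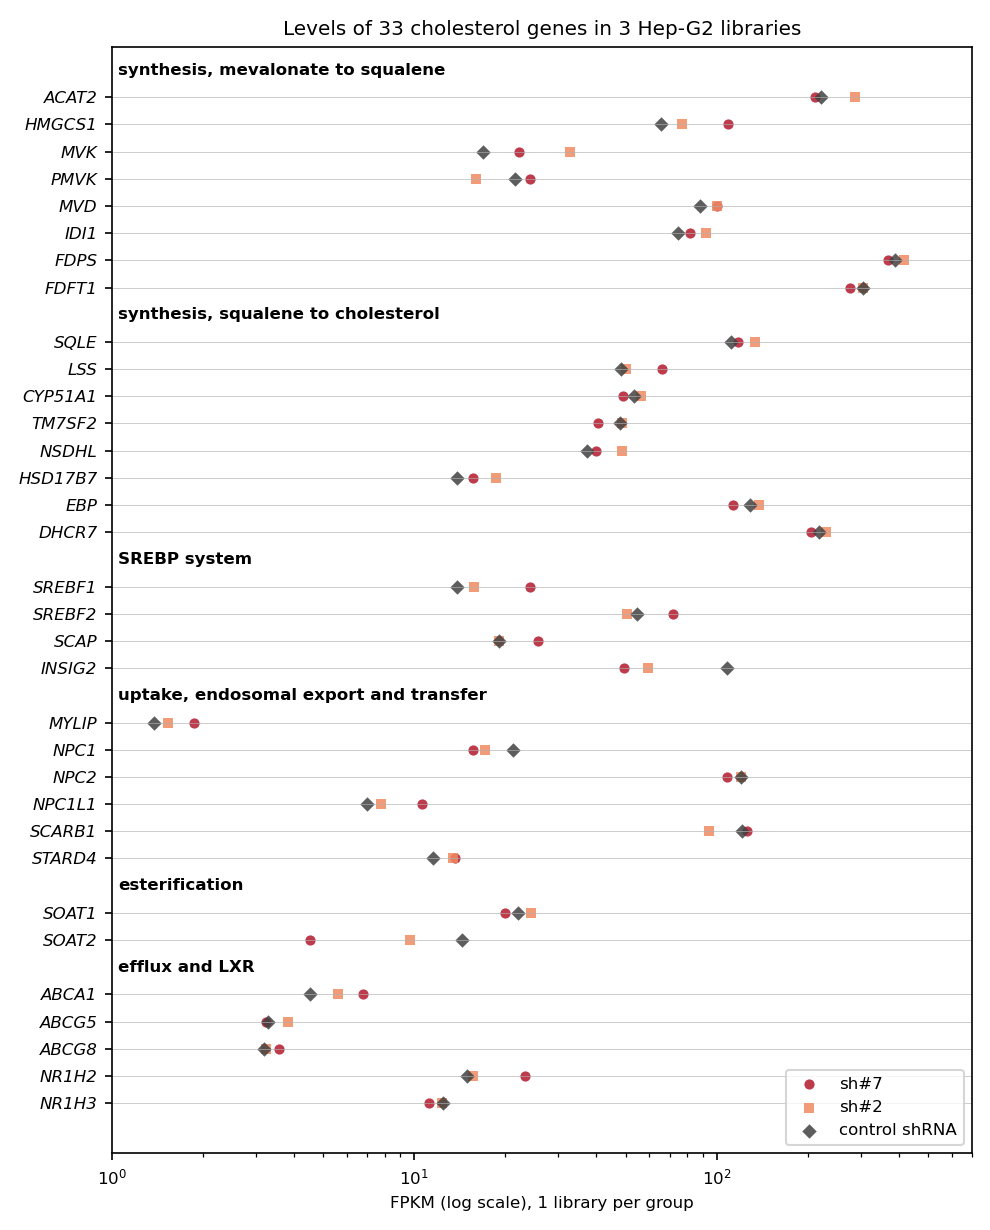
Level of each of the 33 compared cholesterol genes in FPKM (log axis) in the sh#7 (circles), sh#2 (squares) and control (diamonds) libraries, 1 library each and so without error bars, grouped by role. The 3 symbols overlap or lie close together for most genes, and separate most for INSIG2 (49.3, 59.2 and 108 FPKM), SOAT2 (4.53, 9.65 and 14.4 FPKM) and MVK (22.3, 32.9 and 16.8 FPKM).

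In the SREBP system, INSIG2 was lower in both lines. INSIG2, which retains SCAP in the endoplasmic reticulum, was at 49.3 FPKM (sh#7) and 59.2 FPKM (sh#2), against 108 FPKM (control). Both knockdown libraries were well below the control and close to each other. As a share of the control this came to 45.5% for sh#7 (44.0 to 46.9) and 54.6% for sh#2 (53.0 to 56.3), with differences of -1.12 and -0.86. Only 1.90% of compared genes in sh#7 and 1.04% in sh#2 had a lower difference. INSIG1, its relative and a well known SREBP target, is listed at 0 in all 3 libraries, and a value listed at 0 in this kind of table can be a failed estimate, so nothing was compared for it.

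The transcription factor genes and SCAP had their highest level in sh#7. SREBF1, whose products drive mainly fatty acid genes, was at 24.2 FPKM (sh#7) and 15.7 FPKM (sh#2), against 13.9 FPKM (control). Set against the control, sh#7 reached 174% (166 to 183) and sh#2 113% (107 to 119), with differences of 0.76 and 0.17. SREBF1 shares 6.92% of its annotated exon bases with RAI1 on the opposite strand, and RAI1 was at 7.98, 6.16 and 5.22 FPKM in sh#7, sh#2 and the control. SREBF2, which drives mainly cholesterol genes, was at 71.8 FPKM (sh#7) and 50.5 FPKM (sh#2), against 54.6 FPKM (control). SCAP was at 25.7, 19.0 and 19.1 FPKM in sh#7, sh#2 and the control. For these 3 genes sh#2 lay much closer to the control than sh#7 did. Compared directly, SREBF1 in sh#7 was past 1.5-fold above sh#2 by a narrow margin, with a difference of 0.59 on the log2 scale. This was not so under median-of-ratios or upper-quartile scaling. SREBF1 was the 1 member past 1.5-fold higher between the lines, against 5.14% of all compared genes.

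The 6 uptake and transfer genes were also within 1.5-fold of the control in both lines on the log2(FPKM + 1) scale, which again is where most of the 11069 compared lay (9321 in sh#7, 10473 in sh#2). NPC1L1, the sterol importer of the apical membrane, was at 10.6 FPKM (sh#7) and 7.79 FPKM (sh#2), against 6.96 FPKM (control). NPC1, which exports cholesterol from late endosomes, was at 15.7, 17.1 and 21.2 FPKM in sh#7, sh#2 and the control, so both lines were below it. Its partner NPC2, which hands sterol to NPC1, was at 108, 120.4 and 121 FPKM and lay closer to the control. As a share of the control, NPC1 came to 73.9% for sh#7 (70.8 to 77.2) and 80.7% for sh#2 (77.4 to 84.2). With a pseudocount of 0.1, NPC1L1 was past 1.5-fold higher in sh#7.

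SCARB1, a receptor for high density lipoprotein, was at 126 FPKM (sh#7) and 94.3 FPKM (sh#2), against 121 FPKM (control). Here sh#2 was the low library, at 77.9% of the control (75.9 to 79.9). STARD4, a soluble sterol carrier and known SREBP target, was at 13.7, 13.5 and 11.5 FPKM in sh#7, sh#2 and the control. MYLIP, a ubiquitin ligase induced by LXR, was low throughout, at 1.87, 1.54 and 1.38 FPKM, and its interval of 103% to 179% of the control in sh#7 was the widest of all members.

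The esterifying enzymes parted. SOAT2, the cholesterol acyltransferase of hepatocytes and enterocytes, was at 4.53 FPKM (sh#7) and 9.65 FPKM (sh#2), against 14.4 FPKM (control). The share of the control left was 31.4% for sh#7 (27.9 to 35.2), the lowest of the 33 compared members, and 66.9% for sh#2 (61.2 to 73.1). In sh#2, SOAT2 was past 1.5-fold lower under median-of-ratios and upper-quartile scaling. The differences were -1.48 in sh#7 and -0.53 in sh#2, and 1.04% and 3.21% of compared genes were lower still. Between the lines, sh#7 was at 46.9% of sh#2 (41.5 to 53.0), a difference of -0.95 that made SOAT2 the 1 member past 1.5-fold lower, where 4.55% of compared genes were. SOAT1, the form found in most tissues, was at 19.9 FPKM (sh#7) and 24.4 FPKM (sh#2), against 22.1 FPKM (control). SOAT1 was thus the higher of these enzymes in every library, and more so in sh#7.

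**Figure D3:**
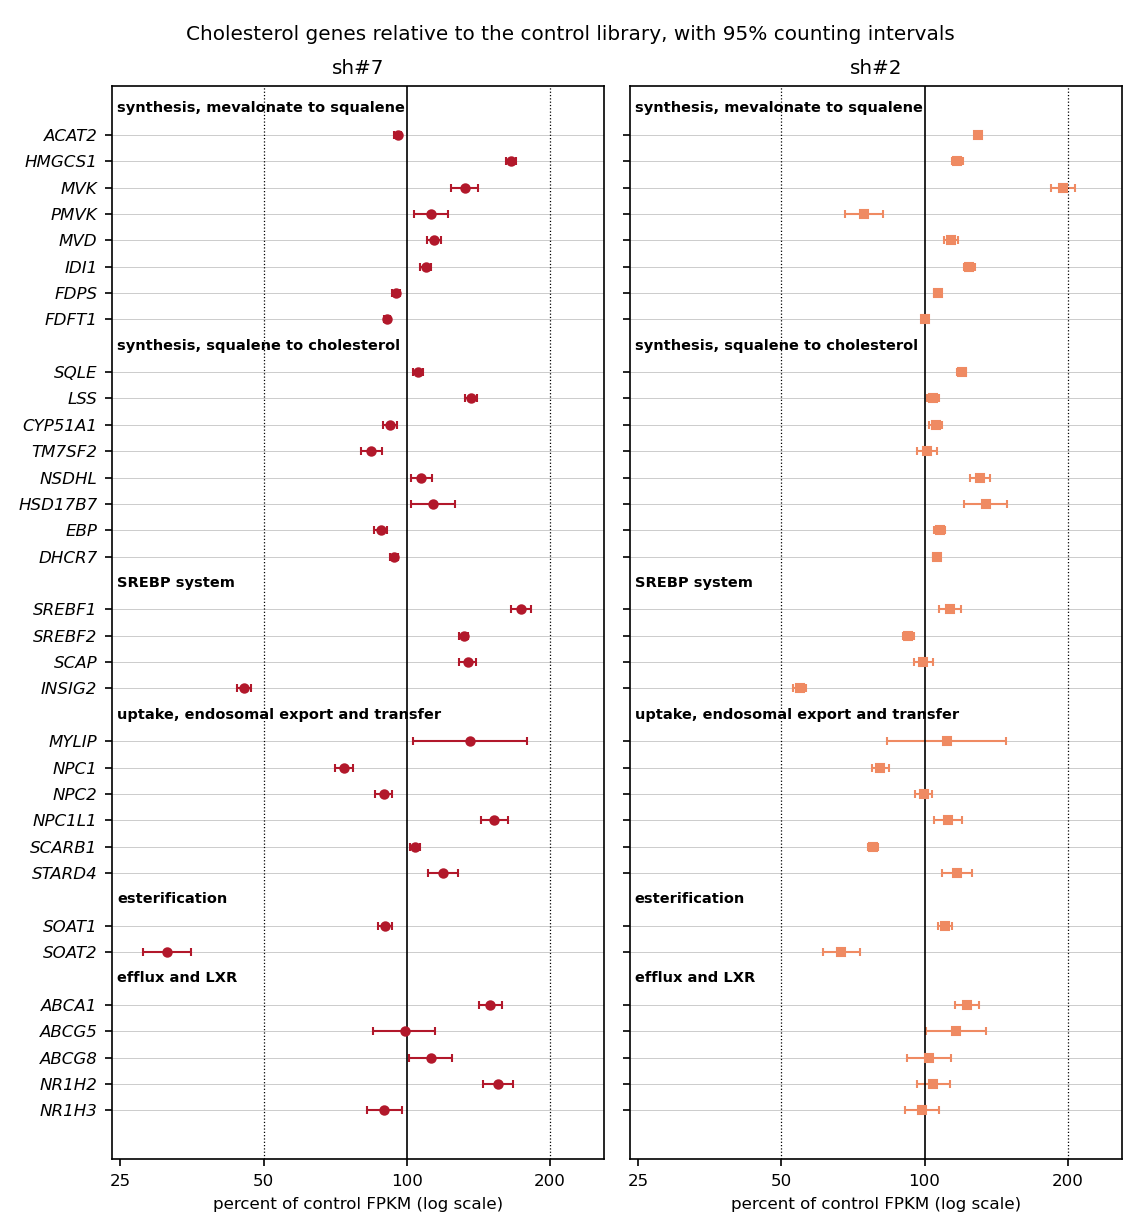
Level of each compared cholesterol gene as a percentage of the control library (log axis) in sh#7 (left) and sh#2 (right), with approximate 95% counting intervals as bars; the solid line marks equality and the dotted lines mark 50% and 200%. INSIG2 (45.5% and 54.6%) and SOAT2 (31.4% and 66.9%) lie left of the line in both panels, while MVK reaches 195% in sh#2 and SREBF1 174% in sh#7.

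The efflux transporters were expressed at low levels, and ABCA1 was above the control in both lines by less than 1.5-fold. ABCA1, which loads cholesterol onto apolipoprotein A-I and is a known LXR target, was at 6.79 FPKM (sh#7) and 5.58 FPKM (sh#2), against 4.54 FPKM (control), so both lines were above it. Set against the control, this made 149.8% for sh#7 (142 to 158) and 123% for sh#2 (116 to 130.1). ABCG1, another sterol exporter, was listed at 0.00781 FPKM in sh#7, 0.00780 FPKM in sh#2 and 0 in the control, and was not compared. ABCG5 and ABCG8, which pair to form a single sterol exporter, were low throughout: ABCG5 was at 3.24, 3.82 and 3.28 FPKM and ABCG8 at 3.57, 3.24 and 3.18 FPKM in sh#7, sh#2 and the control. They start 132 bases apart on opposite strands of chromosome 2 in RefSeq. The levels of these partners were close to each other in each library, and their exons overlap by 137 bases, so reads there could be mixed.

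Of the LXR genes, NR1H2 had its highest level in sh#7 and NR1H3 did not. NR1H2, which encodes the widely expressed LXR-beta, was at 23.3 FPKM (sh#7) and 15.6 FPKM (sh#2), against 14.98 FPKM (control). In sh#7 it reached 155% of the control (144 to 167), past 1.5-fold by a narrow margin with a difference of 0.60, and was no longer past it under median-of-ratios or upper-quartile scaling. HMGCS1 likewise stayed past 1.5-fold under upper-quartile but not under median-of-ratios scaling. NR1H3, which encodes the LXR-alpha of liver and macrophages, was at 11.2, 12.3 and 12.5 FPKM in sh#7, sh#2 and the control, with both lines at or just below the control.

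Other genes of sterol metabolism were examined through 10 lists, of which 100 genes were compared. In sh#7, 4 of the 100 were past 2-fold higher and 0 lower, against 2.35% and 2.48% of all compared genes. This balance depended on the scale: it was 2 higher and 4 lower under median-of-ratios scaling, and 5 higher and 4 lower with a pseudocount of 0.1. In sh#2, 1 was higher and 1 lower, against 0.506% and 0.723%. Their relative median was -0.03 in sh#7 and 0.01 in sh#2, so as a whole they lay at the level of all compared genes. CES1, a liver carboxylesterase able to cleave cholesterol esters, was at 277 FPKM (sh#7) and 207 FPKM (sh#2), against 65.1 FPKM (control). OSBPL10, an oxysterol binding protein relative, was at 4.41, 3.92 and 9.24 FPKM in sh#7, sh#2 and the control and was past 2-fold lower in sh#2. In the list of LXR partners and coregulators, NCOA1, a nuclear receptor coactivator, was at 4.28, 2.39 and 1.45 FPKM in the same order.

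Fatty acid genes that SREBPs also drive held the other 2 genes past 2-fold higher in sh#7, out of 10 compared, where 2.35% of all compared genes were. GPAM, which starts glycerolipid synthesis, was at 32.4 FPKM (sh#7) and 17.4 FPKM (sh#2), against 9.48 FPKM (control). ACACA, the acetyl-CoA carboxylase, was at 21.6, 15.2 and 10.1 FPKM in the same order. Its difference of 1.02 in sh#7 passed 2-fold by a narrow margin, and not under median-of-ratios or upper-quartile scaling. In both genes sh#2 lay between sh#7 and the control. FASN, the fatty acid synthase, was at 167, 148 and 103 FPKM in sh#7, sh#2 and the control. Past 1.5-fold in sh#7 were 3 of the 10 higher (GPAM, ACACA and FASN) and 1 lower (ELOVL6). Of all compared genes, 9.61% were higher and 6.18% lower by that measure. The fatty acid elongase ELOVL6 was at 7.91, 13.4 and 16.3 FPKM in sh#7, sh#2 and the control, a difference of -0.95 in sh#7. ELOVL5, also on the lower side, was at 41.8, 51.3 and 54.5 FPKM. FASN and both elongases were named after their values were seen. Above the median of all compared genes lay 6 of the 10 in sh#7, and 5 of the 10 in sh#2.

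Among synthesis genes outside the 35, SC4MOL was at 53.7, 86.3 and 71.6 FPKM and SC5DL at 12.8, 20.6 and 16.9 FPKM in sh#7, sh#2 and the control. Both were named after their values were seen, and neither was past 1.5-fold from the control in either line. In both genes sh#2 was above and sh#7 below the control. Of the 15 genes of SREBP processing and enzyme degradation, 1 was past 1.5-fold higher in sh#7, where 9.61% of all compared genes were. It was C12orf49, a regulator of SREBP cleavage also named after its values were seen, at 24.3 FPKM (sh#7) and 20.3 FPKM (sh#2), against 13.5 FPKM (control). The 15 genes of the isoprenoid branch and prenylation were within 1.5-fold of the control in both lines, as were 9321 of all 11069 compared genes in sh#7 and 10473 in sh#2.

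**Figure D4:**
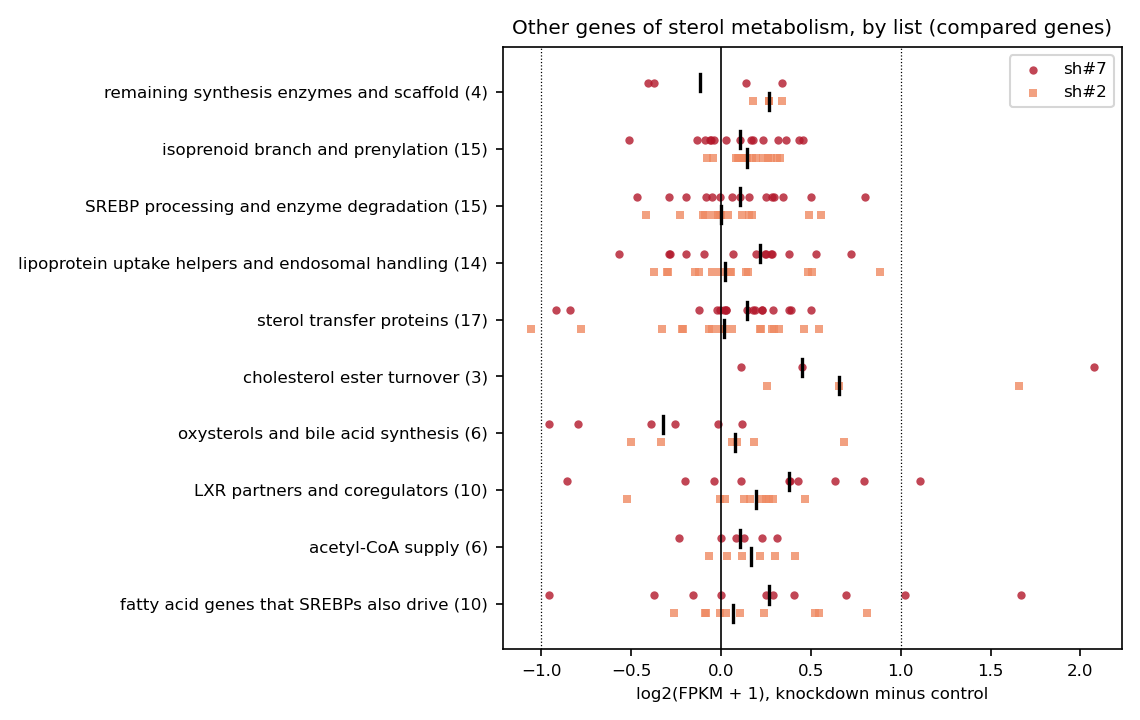
Difference from the control in log2(FPKM + 1) for the 100 compared genes of 10 other lists of sterol metabolism, in sh#7 (circles) and sh#2 (squares), with the number of genes in brackets; black bars are list medians and dotted lines mark 2-fold. Most points lie within the dotted lines, and CES1 (2.07 in sh#7 and 1.66 in sh#2) and GPAM (1.67 in sh#7) lie furthest out.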

How the data were processed

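RNA of 3 Hep-G2 libraries, 1 each for sh#7, sh#2 and the control, was compared. The authors deposited 1 table of FPKM values with a row per gene symbol. Build hg19 and the tools Cufflinks 2.2.1, STAR 2.4.0j and HTSeq appear, without their roles, per the submitters' processing notes. A count test was not run, because FPKM is not a count.

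Genes averaging 1 FPKM or more over the libraries entered the comparison, with differences taken as log2(FPKM + 1) and summarised as 2-fold and 1.5-fold counts and as medians beside those of all compared genes. The members and lists were chosen with earlier results of these data known. Depth was estimated from the steps that single fragments leave in low FPKM values of genes with 1 transcript longer than 800 nt in GENCODE 29, with 180 nt subtracted from each length. Fragments per gene followed from the depth and principal transcript length, and gave 95% intervals by the exact Clopper-Pearson method; lengths are from a newer annotation than the authors', so intervals are approximate. The steps were tested on simulated data.

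Genes were named by a rule: all members, FTO, and genes of other lists past 2-fold in either line; exceptions are marked. Alternatives were a pseudocount of 0.1, no minimum, a minimum of 5 FPKM, median-of-ratios and upper-quartile scaling, the 1.5-fold threshold and a mean over members. Python 3.11.15 and SciPy 1.17.1 were used. Some other genes of the pathway were not analysed here.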

Additional observations from a re-analysis of the deposited data

Results flagged for a closer look

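AKR1D1, a bile acid synthesis enzyme from the list of oxysterols and bile acid synthesis, lay -0.80 from the control in the sh#7 library but 0.69 from it in the sh#2 library on the log2(FPKM + 1) scale, so the knockdown lines lay past 1.5-fold on opposite sides of the control. Its levels were 2.512 FPKM (sh#7) and 8.83 FPKM (sh#2), against 5.11 FPKM (control). The difference between the lines was not tested, since each is 1 library. It was named for this pattern, which was looked for among the members and the other lists; 0 members and 27 of all compared genes showed such opposite differences.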

How the results depend on the processing

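No paired analysis was possible because the 3 groups are 1 library each, and for that reason none could be left out. INSIG2 and SOAT2 were the members past 2-fold lower in sh#7 under each of the pseudocount, minimum and scaling alternatives, and MVK and INSIG2 stayed past 1.5-fold in sh#2 under these. None of these alternatives could have removed a lower call of INSIG2 or SOAT2 against the control. The smaller pseudocount enlarges differences, both scalings divide the knockdown lines by more than 1, and the mean of each gene was above 5 FPKM. A pseudocount of 0.1 put SOAT2 past 2-fold lower in sh#7 against sh#2 (1 member). With 1.5-fold as the threshold, the members counted out of 33 were 3 higher with 2 lower for sh#7, and 1 higher with 1 lower for sh#2. For sh#7 against sh#2 they were 1 higher with 1 lower. Of all compared genes, 9.61% were higher and 6.18% lower for sh#7, and 2.67% and 2.72% for sh#2. The shares for sh#7 against sh#2 were 5.14% and 4.55%. FTO in sh#7, sh#2 and sh#7 against sh#2 was at -1.78, -0.76 and -1.02 with a pseudocount of 0.1. Against the control it was at -1.62 and -0.77 in sh#7 and sh#2 under median-of-ratios scaling, and at -1.58 and -0.76 under upper-quartile scaling. With no minimum the median of all genes is near 0, since many genes are listed at 0, and the relative medians became 0.0764 for members in sh#7, 0.0833 in sh#2, and 0.0877 for all synthesis enzymes in sh#7. In the other lists, the genes past 2-fold lower in sh#7 than control became 4 with a pseudocount of 0.1, 1 with no minimum, 4 with median-of-ratios scaling and 3 with upper-quartile scaling; the higher ones became 2 under median-of-ratios scaling. With the pseudocount of 0.1, 2 were higher in sh#2 and 1 higher in sh#7 than sh#2. Out of 100 compared genes of the other lists, the 1.5-fold counts were 9 higher with 6 lower for sh#7 and 5 with 2 for sh#2. They were 5 with 5 for sh#7 against sh#2. The shares of all compared genes are those given above for the members. Of 297 alternative values of single members, 125 left their counting interval, 73 under median-of-ratios scaling, 50 under upper-quartile scaling and 2 with the pseudocount. The scalings divided sh#7 by 1.13 or 1.08 and sh#2 by 1.09 or 1.07 relative to the control. Counting depth limits MYLIP most, with 127, 107 and 94 estimated fragments in sh#7, sh#2 and the control.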
